A study of Mus musculus with 6 samples.

Results

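The cytosolic ribosomal protein genes of B16F10, a pigmented mouse melanoma line, are described here across 6 RNA sequencing libraries. The members are the rows named Rps or Rpl followed by a number (with an optional a, x or l), Rplp0, Rplp1, Rplp2 and Rpsa, with a mean of at least 10 TPM (a measure of transcript abundance corrected for transcript length and library size). Of 51912 genes in the table, 82 carried such a name and 77 reached the limit, 31 of the small subunit and 46 of the large. The lowest member inside the limit was Rpl5, with a mean of 57.0 TPM, and the highest gene outside it was Rpl3l, a muscle paralog of Rpl3, with 0.0917 TPM. Rpl6l had a mean of 0.0183 TPM, and Rpl10l, Rpl39l and Rps4l were listed at 0 in all 6 libraries. The study set A10KO, B16F10 cells labelled with the ANXA10-/- genotype (replicates 1, 13 and 14, numbered as in the labels), against WT, wild-type B16F10 cells (replicates 1, 2 and 3). The labels do not say whether these numbers stand for clones, cultures or preparations, and the p-values therefore reflect no more than how these 6 libraries vary, possibly for technical reasons.

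Each cytosolic ribosome joins a small subunit, which reads the messenger RNA, to a large subunit, which forms the peptide bond, and each subunit carries a single copy of most of its proteins. The genes are scattered over the genome, are transcribed in every growing cell at high and similar levels, and have left many processed pseudogenes, which are copies of their messages pasted back into the genome. Their messages begin with a run of pyrimidines, the terminal oligopyrimidine (TOP) tract, through which mTOR signalling and the protein LARP1 set how fast they are translated.

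With that tract in mind, runs of pyrimidines were looked for around annotated transcription starts (RefSeq, GRCm38.p6). Such starts were found for 57 of the 77 members, 68 starts in all. A run of at least 8 C or T bases on the gene's strand, between 25 bases before and 50 bases after the start, was present at 48 of the 68 member starts (70.6%) and at 27.2% of all 32851 starts. The 8 members with the highest mean TPM among those with a run are printed as stretches of 30 bases, 5′ to 3′, with the longest run of each stretch in capitals (Rps2 holds a second run of 8 bases in lower case).
Rps2, chr17:24720083-24720112, plus strand: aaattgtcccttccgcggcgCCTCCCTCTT
Rpl13, chr8:123102324-123102353, plus strand: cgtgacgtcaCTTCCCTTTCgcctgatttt
Rpl13a, chr7:45128722-45128751, minus strand: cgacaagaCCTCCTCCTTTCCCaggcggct
Rpl41, chr10:128549119-128549148, minus strand: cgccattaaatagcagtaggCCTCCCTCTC
Rpl26, chr11:68901579-68901608, plus strand: gcgtgtagTTCTCTTTCCTTTTgcggccat
Rps24, chr14:24490698-24490727, plus strand: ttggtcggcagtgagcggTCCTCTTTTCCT
Rps15, chr10:80292446-80292475, plus strand: gcagcccgtaCTTCCTTTTCCgagtaaccg
Rps6, chr4:86857349-86857378, minus strand: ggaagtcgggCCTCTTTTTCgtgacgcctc
In Rps2, Rpl41 and Rps24 the run ends where the searched window ends and may be longer. Positions count from 1 at the annotated start, with bases before it negative. The runs in capitals begin at 41 in Rps2 and Rpl41, 39 in Rps24, 26 in Rps15 and 22 in Rpl26. They begin at 3 in Rpl13a, -1 in Rps6 and -16 in Rpl13. Whether a run is the tract at the beginning of the message was not tested. Other motifs were searched on both strands over the 300 bases from 250 before to 50 after the start. CCGGAAGT, a form of the ETS and GABP site, was present at 17.6% of member starts and 3.89% of all starts, GGGCGG, the core of an SP1 site, at 60.3% and 35.7%, and CACGTG, the E-box bound by MYC, at 11.8% and 7.15%. The CTTCC in the reverse complement of CCGGAAGT can lie inside a pyrimidine run. A match describes letters only and was not tested as a site.

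The knocked-out gene gave no check of the labels, because Anxa10 was listed at 0 TPM in all 6 libraries, WT included. All 7 melanocytic markers reached 1 TPM, with sums of 9410 to 11254 TPM in A10KO and 8913 to 10016 TPM in WT. Markers of other cell types were near 0, but some were lower in A10KO. Of 6 leukocyte markers 1 reached 1 TPM, Cd68, with 1.29, 0.89 and 0.86 TPM in A10KO and 2.42, 4.70 and 4.80 TPM in WT, and Cd3e and Tyrobp were listed at 0. The leukocyte markers summed to 0.91 to 1.51 TPM in A10KO and 2.86 to 5.52 TPM in WT, without overlap. Of 5 fibroblast markers 2 reached 1 TPM and Lum was listed at 0, with sums of 0.83 to 3.13 TPM in A10KO and 2.98 to 3.44 TPM in WT. Col1a1 among them had 0.62, 1.60 and 0.32 TPM in A10KO and 1.93, 2.42 and 2.46 TPM in WT. Of 4 endothelial and 3 keratinocyte markers 0 reached 1 TPM, with sums of 0.10 to 0.27 and 0 to 0.29 TPM in A10KO and 0.04 to 0.62 and 0.16 to 0.34 TPM in WT. The part of these cell type markers in the results was not tested. A10KO 13 stood apart from the other 5 libraries in its shares of ribosomal protein and mitochondrially encoded transcripts, given below. The comparison of the groups is therefore also given without it. Sequencing depth is unknown, since TPM keeps no record of it. In these bulk libraries, fewer cells of a kind and less RNA per cell cannot be told apart.

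Ribosomal protein genes took a smaller share of A10KO 13 than of any other library. The 77 members made up 14.6%, 11.2% and 15.8% of the summed TPM in A10KO 1, 13 and 14, against 15.4%, 15.02% and 15.9% in WT 1, 2 and 3. That is 13.9% ± 2.38 in A10KO and 15.5% ± 0.451 in WT (SD, n = 3 each), and the groups overlap, since A10KO 14 lies above WT 1 and WT 2. A10KO 13 was the lowest of the 6 libraries for both subunits. Large-subunit members took 8.50%, 6.76% and 9.42% in A10KO and 9.21%, 8.97% and 9.50% in WT. Small-subunit members took 6.15%, 4.47% and 6.38% in A10KO and 6.20%, 6.05% and 6.42% in WT. The ratio of summed small-subunit to summed large-subunit TPM was 0.724, 0.662 and 0.677 in A10KO, and it stayed between 0.674 and 0.676 in the 3 WT libraries.

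**Figure D1:**
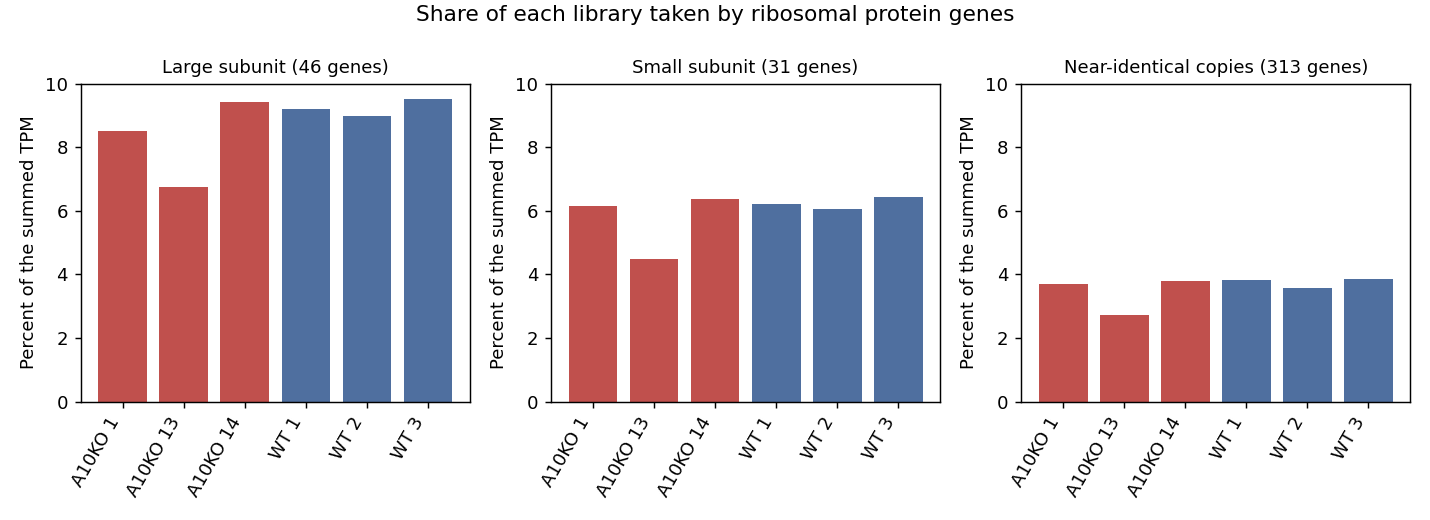
Percent of the summed TPM of each library (y axis) taken by large-subunit members, small-subunit members and near-identical copies of members, with A10KO libraries in red and WT libraries in blue. A10KO 13 is lowest in all 3 panels, at 6.76%, 4.47% and 2.71%.

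Mitochondrially encoded transcripts moved the other way in the same library. They held 7.80%, 14.5% and 7.28% of the summed TPM in A10KO 1, 13 and 14, against 6.46%, 6.37% and 6.23% in WT. With these transcripts removed from every total, the members took 15.9%, 13.2% and 17.1% in A10KO and 16.5%, 16.1% and 17.0% in WT, so A10KO 13 remained lowest. Summed replication-dependent histone transcripts, which lack a poly(A) tail, ranged over 82.7 to 137 TPM in A10KO and 177 to 201 TPM in WT. The part of the histone and mitochondrial differences in the ribosomal protein result was not tested.

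No ribosomal protein gene passed the test between A10KO and WT. With limma on log2(TPM + 1) over 12068 genes, 0 of 77 members were called at an adjusted p under 0.05, where 0.0414% of all genes tested were called in either direction (0.0166% higher and 0.0249% lower). At an unadjusted p under 0.05, 0 members were higher and 0 were lower, against 2.56% and 6.27% of all genes. The lowest p belonged to Rpl17, a large-subunit protein at the exit of the peptide tunnel, which had 871, 809 and 979 TPM in A10KO and 1069, 1064 and 1093 TPM in WT. Every A10KO library was below every WT library there, with a log2 change of -0.28 ± 0.13 (SE), an unadjusted p of 0.0562 and an adjusted p of 0.568 in limma. The median log2 change over members was -0.21, against -0.04 over all genes tested, and 68 of 77 members (88.3%) had a value below 0, against 56.5% of all genes. Without A10KO 13 the members' median was -0.05, against -0.08 over all genes, and 50 members (64.9%) were below 0, against 62.8% of all genes. Without A10KO 14 the members' median was -0.31, and with quantile normalization and array quality weights it was -0.12 and -0.13.

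In 14 of 77 members (18.2%) every A10KO library lay below every WT library, where 11.5% of all genes tested did so, and in 0 members every A10KO library lay above every WT library, where 5.61% of all genes did. Among the 14 were Rps14 and Rps16 of the small subunit and Rpl3, Rpl6, Rpl17, Rpl18, Rpl19, Rpl22, Rpl23a, Rpl26 and Rpl28 of the large. The count, and the background beside it, changed with the libraries and their scaling. Without A10KO 13 it was again 14 (18.2%), but 21.01% of all genes tested then lay lower without overlap. It was 1 of 77, Rpl3 (1496, 1026 and 1581 TPM in A10KO and 1594, 1813 and 1682 TPM in WT), with median-of-ratios or TMM scaling, where 8.90% and 9.40% of all genes tested lay lower without overlap. It was 9 (11.7%) with mitochondrially encoded transcripts removed, against 8.85% of all genes, and 6 (7.79%) with libraries scaled to the summed members, against 4.51%. It was 22 (28.6%) without WT 2, against 14.7% of all genes, and 46 (59.7%) without A10KO 14, against 21.2%.

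The members differed more between A10KO libraries than between WT libraries. Against the WT mean, the median log2 difference over the 77 members was -0.14 in A10KO 1, -0.49 in A10KO 13 and 0.01 in A10KO 14, where the medians over all genes tested were -0.12, 0.02 and -0.03. In A10KO 13, 70 of 77 members (90.9%) were below the WT mean, against 48.5% of all genes, and 38 (49.4%) were lower by more than 0.5 on the log2 scale, against 16.0% of all genes. In A10KO 14, 36 members (46.8%) were below the WT mean, against 54.7% of all genes. There 0 members were lower by more than 0.5, against 9.46% of all genes. In A10KO 1 these counts were 56 (72.7%), against 63.4% of all genes, and 4 (5.19%), against 15.6%. A10KO 13 held the lowest of the 6 values for 59 of 77 members, 25 of them small-subunit and 34 large-subunit genes. The share of all genes with their lowest value in that library is not given here. The median coefficient of variation over members was 20.9% in A10KO and 4.0% in WT, against 18.5% and 8.29% for all genes averaging 10 TPM or more. The SD was larger in A10KO than in WT for 76 of 77 members (98.7%), against 79.5% of those genes. Without A10KO 13, a choice made after the data were seen, it was larger for 59 members (76.6%), against 60.9% of those genes, and the median coefficient of variation in A10KO was 10.1% over members and 12.3% over those genes.

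The shift within A10KO 13 was uneven from gene to gene. The SD over members of the log2 difference was 0.449 in A10KO 13, 0.244 in A10KO 1 and 0.152 in A10KO 14. The 9 members below -1 in A10KO 13 included Rps19, Rps13, Rps3, Rpl13a, Rps29, Rps27, Rpl22 and Rps23, picked after their values were seen. Rps19, the gene most often mutated in human Diamond-Blackfan anaemia, had 1418, 556 and 1513 TPM in A10KO and 1426, 1385 and 1436 TPM in WT. At the other end, Rps6, Rps10, Rps12, Rps25, Rpl5, Rpl27 and Rpl38 were at or above the WT mean in A10KO 13. Coding length and the log2 difference in A10KO 13 had a Spearman correlation of 0.20 over the 77 members, with 0.01 in A10KO 1 and -0.22 in A10KO 14. In WT 1, 2 and 3 it was 0.29, 0.06 and -0.45, so values of this size were not particular to A10KO. These correlations are descriptions over genes of single libraries. The 46 members with a pyrimidine run in the window around a start had a median of -0.41 in A10KO 13, and the 11 with a start but no run had -0.50.

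The small-subunit members named by the rule for level, change or role ran as follows. Rps2, a universal protein near the mRNA entry, was the most abundant of them, with 3645, 3262 and 4159 TPM in A10KO and 3643, 3485 and 3659 TPM in WT. Rpsa, also known as the laminin receptor precursor, had 4294, 3088 and 3629 TPM in A10KO and 3438, 3300 and 3525 TPM in WT. In both genes A10KO 13 was the lowest library and another A10KO library the highest, and the groups overlapped.

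Rps6, the substrate of the S6 kinases downstream of mTOR, had the smallest log2 change of those named, with 2597, 2850 and 2557 TPM in A10KO and 2696, 2588 and 2774 TPM in WT and a log2 change of -0.01 ± 0.14 (SE). Rps25, which several viral internal ribosome entry sites need, had 2136, 1796 and 1984 TPM in A10KO and 1732, 1748 and 1805 TPM in WT. Rps26, which contacts the mRNA at the exit, had 2361, 1675 and 1808 TPM in A10KO and 1819, 1725 and 1863 TPM in WT. For Rps25 the groups nearly part, with only A10KO 13 inside the WT range, at an adjusted p of 0.770 in limma.

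Rps3, which lines the mRNA entry and also has a role in DNA repair, had the most negative log2 change of the family as deposited, -0.51 ± 0.28 (SE, limma adjusted p = 0.655). Its levels were 1066, 600 and 1374 TPM in A10KO and 1323, 1401 and 1384 TPM in WT. A10KO 14 lay inside the WT range while A10KO 1 and 13 lay below it. Rps21 was like Rps3, with 1610, 1189 and 2333 TPM in A10KO and 2136, 2221 and 2371 TPM in WT. Rps27a, made as a fusion with ubiquitin that is later cleaved, had 1953, 933 and 1543 TPM in A10KO and 1757, 1685 and 1829 TPM in WT, with A10KO 1 the highest and A10KO 13 the lowest of the 6.

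Among large-subunit members, the stalk proteins that recruit elongation factors held the highest level of the family and differed among themselves in A10KO 13. Rplp1, the most abundant member, had 8605, 4361 and 8231 TPM in A10KO and 7475, 7188 and 8101 TPM in WT. Its partner Rplp2 had 1220, 652 and 1291 TPM in A10KO and 1279, 1246 and 1362 TPM in WT. Rplp0, the base on which both are mounted, had 2340, 2204 and 2689 TPM in A10KO and 2492, 2398 and 2558 TPM in WT. In A10KO 13 the log2 difference from the WT mean was -0.80 for Rplp1 and -0.99 for Rplp2, but -0.17 for Rplp0.

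Rpl32 had 6831, 4318 and 7036 TPM in A10KO and 6736, 6522 and 7007 TPM in WT. Rpl36 had 4041, 2342 and 3736 TPM in A10KO and 4010, 4002 and 4247 TPM in WT, and Rpl13 had 3381, 2924 and 3947 TPM in A10KO and 3865, 3743 and 3985 TPM in WT. In all 3 genes the groups overlapped and A10KO 13 was lowest. Rpl23a, a docking point for the signal recognition particle at the tunnel exit, had 3820, 2557 and 3515 TPM in A10KO and 3933, 3827 and 4029 TPM in WT. There the groups did not overlap, by a narrow margin between A10KO 1 and WT 2.

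Rpl13a, which leaves the ribosome in the interferon-gamma response of human monocytes to silence selected messages, had 3251, 1815 and 4180 TPM in A10KO and 4043, 4256 and 3967 TPM in WT (log2 change -0.49 ± 0.29, SE, limma adjusted p = 0.676). Rpl39, a short protein of the exit tunnel, had 559, 385 and 799 TPM in A10KO and 718, 775 and 817 TPM in WT. Rpl22, whose loss impairs the development of alpha-beta T cells in mice, had 1130, 582 and 1143 TPM in A10KO and 1204, 1231 and 1298 TPM in WT. All A10KO values of Rpl22 were below all WT values, while for Rpl13a and Rpl39 A10KO 14 reached into the WT range.

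Rpl11, which with Rpl5 and the 5S RNA binds MDM2 when ribosome assembly fails, had 1721, 1315 and 2091 TPM in A10KO and 2047, 1865 and 2053 TPM in WT. Rpl5 itself had 56.4, 56.2 and 71.4 TPM in A10KO and 57.1, 47.5 and 53.6 TPM in WT. The deposited levels of these partners, which enter the ribosome together, thus lay far apart, and Rps12, Rpl12 and Rps20 also stood low in the family.

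Copies of these genes elsewhere in the genome also carried high TPM values. Transcripts of other genes that match a member's coding sequence at 95% identity or more over at least 80% of its length were counted as near-identical copies, in the GENCODE M21 annotation of GRCm38. There were 313 such genes for 70 members, 301 of them annotated as pseudogenes. Of these, 262 had a mean under 1 TPM, but 31 reached 10 TPM and 17 reached 500 TPM. Of those 17, 14 had no difference from their member over the aligned bases. Copies took 3.70%, 2.71% and 3.80% of the summed TPM in A10KO and 3.83%, 3.57% and 3.85% in WT.

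Between such genes, short reads can be told apart only by the few bases that differ, and for identical coding sequences only by the ends of the transcript. The pairs Rps6 and Gm8172 (a processed pseudogene), and Rpl37 and Rpl37rt, show how few these are. Stretches of 90 coding bases are given 5′ to 3′ on the gene's strand, with differing bases in capitals, from GENCODE M21.
Rps6, chr4:86854660-86857412, minus strand, coding bases 411 to 500: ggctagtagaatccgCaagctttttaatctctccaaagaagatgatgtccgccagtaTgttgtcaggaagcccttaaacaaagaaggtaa
Gm8172, chrX:69605496-69606245, minus strand: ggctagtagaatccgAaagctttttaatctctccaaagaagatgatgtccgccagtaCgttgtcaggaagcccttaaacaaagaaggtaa
Rpl37, chr15:5116645-5119140, plus strand, coding bases 204 to 293: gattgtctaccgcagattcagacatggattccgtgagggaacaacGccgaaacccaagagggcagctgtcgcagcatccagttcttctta
Rpl37rt, chr5:115102923-115110268, minus strand: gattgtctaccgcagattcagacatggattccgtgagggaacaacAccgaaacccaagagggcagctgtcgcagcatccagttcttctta
Counted from 1 at the first base of the start codon, with the member's base first, the differences in these stretches are C426A and T468C for Rps6 and G249A for Rpl37. Over all 750 coding bases of Rps6 there are 6 differences from Gm8172, and over the 294 of Rpl37 there is 1 from Rpl37rt. Gm8172 had a mean of 1567 TPM beside 2677 TPM for Rps6, and Rpl37rt 713 TPM beside 539 TPM for Rpl37.

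The 4 members with the lowest means each had an abundant near-identical copy. Rps12 (ENSMUSG00000061983) had 113, 69.2 and 92.7 TPM in A10KO and 73.3, 52.3 and 71.3 TPM in WT, while Rps12-ps3, identical over all 399 coding bases, had a mean of 4429 TPM, so that copies held 98.3% of the combined value. For Rpl12, at the base of the stalk, with a mean of 126 TPM, Gm10275 had 3681 TPM and copies held 96.7%. For Rpl5, with a mean of 57.0 TPM, Gm15500 had 1265 TPM and copies held 95.7%. For Rps20, with a mean of 260 TPM, Gm4332 had 441 TPM and copies held 62.9%. Rpl10, which joins late in the maturation of the large subunit, had 830, 447 and 759 TPM in A10KO and 736, 531 and 808 TPM in WT, and 70.2% of its combined value was in copies. In 14 members the copies' mean exceeded the member's own.

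**Figure D2:**
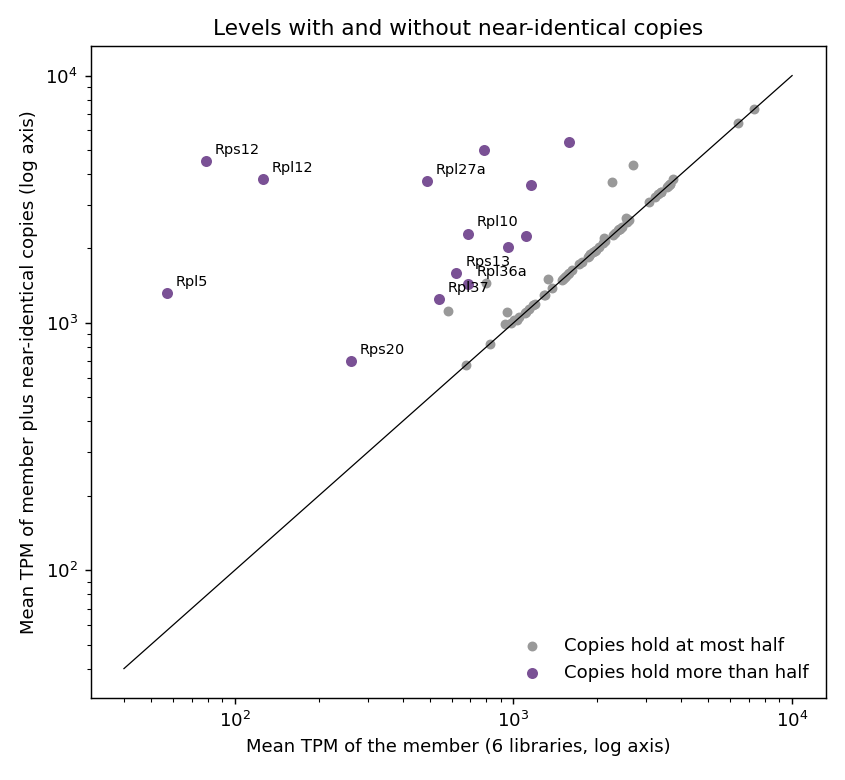
Mean TPM over 6 libraries of each member (x axis, log scale) and of the member plus its near-identical copies (y axis, log scale), with the line of equal values. The 14 members whose copies exceed them are in purple and rise above the line, and after the addition 0 members lie under 500 TPM.

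With copies added to their member, the family's levels drew together. The highest and the lowest member mean differed 129-fold as deposited and 10.8-fold after the addition, and the SD over members of the log2 mean was 1.21 and 0.757. Members under 500 TPM numbered 5 before (the 4 above and Rpl27a) and 0 after, and the lowest was then Rpl39, at 676 TPM. For the comparison of A10KO with WT the addition gave a median log2 change of -0.21. With it, limma called 0 members and 5 of all 12015 genes tested. Lower without overlap were 13 members (16.9%), against 11.5% of all genes tested there. The sums were chosen as an alternative after the data were seen.

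Several members that stood above the WT mean in A10KO 13 gave other values with copies added. Rpl27 (ENSMUSG00000063316, chr11:101442298-101445529) had the largest positive log2 change of the family, 0.61 ± 0.45 (SE, limma adjusted p = 0.744). It had 467, 1835 and 716 TPM in A10KO and 551, 637 and 492 TPM in WT, so that A10KO 13 held 3.33 times the median of the other 5 libraries. Its copies, mainly the identical Rpl27-ps3, had 3634, 3813 and 4113 TPM in A10KO and 4568, 4253 and 4894 TPM in WT. Member plus copies came to 4101, 5648 and 4829 TPM in A10KO and 5119, 4890 and 5386 TPM in WT, which made A10KO 13 1.16 times the median of the others, with a log2 change of -0.09. For Rps12 the log2 change was 0.46 ± 0.21 (SE, limma adjusted p = 0.572) alone and 0.06 with copies, and for Rpl5 it was 0.21 alone and -0.07 with copies. For Rps6 it was -0.01 alone and -0.08 with copies. Rps6 plus copies came to 4245, 4093 and 4371 TPM in A10KO and 4343, 4303 and 4843 TPM in WT, with A10KO 13 the lowest. With copies added, 73 of 77 members were below the WT mean in A10KO 13 and 64 had their lowest value there, and the SD over members in that library was 0.376. The most negative log2 change was then that of Rps29, -0.63 with copies and -0.38 alone, while Rps3 stayed at -0.51.

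**Figure D3:**
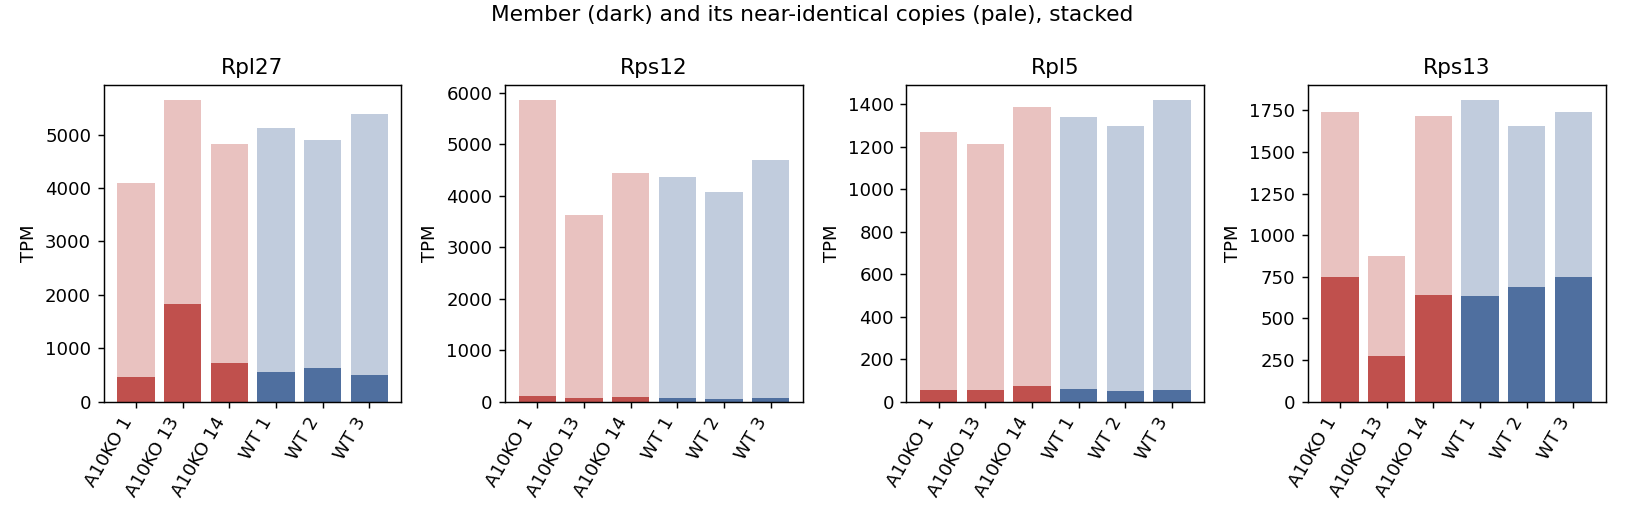
TPM of Rpl27, Rps12, Rpl5 and Rps13 (dark bars) with their near-identical copies stacked on top (pale bars) in each library, A10KO in red and WT in blue. Rpl27 alone stands out in A10KO 13 at 1835 TPM, while for Rps13 member and copies together are lowest in A10KO 13, at 872 TPM.

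Members were also set beside the other genes of their chromosome, chromosome by chromosome. In A10KO 1, the 4 members on chromosome 2 had a median log2 difference from the WT mean of -0.50, where the other genes there had -0.44. The 2 on chromosome 12 had -0.40, with -0.44 for the others, and the 7 on chromosome 9 had 0.20, with 0.18 for the others. Elsewhere the medians lay further apart. The 3 members on chromosome 1 had -0.57, with -0.26 for the others, and the 2 on chromosome 16 had -0.28, with -0.09 for the others. Over 19 chromosomes, the medians of members and of other genes had a Pearson correlation of 0.888 in A10KO 1, 0.709 in A10KO 13 and 0.792 in A10KO 14 (Spearman 0.770, 0.553 and 0.670). These values are descriptions, since both medians come from 1 library and the same WT mean, and some chromosomes hold 1 member.

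In A10KO 13 the members lay below the other genes of their chromosome on 19 of 19 chromosomes, against 14 of 19 in A10KO 1 and 4 of 19 in A10KO 14. Chromosome 7 holds 14 members, with a median of -0.89 in A10KO 13, where its other genes had -0.36. The 5 members on chromosome 4 had a median of -0.94, where its other genes had -0.12. Of the 9 members below -1, 4 lie on chromosome 7 and 2 on chromosome 4. The 58 members on other chromosomes still had a median of -0.38. Set against the other genes of its own chromosome, the median member was at -0.43 in A10KO 13, -0.03 in A10KO 1 and 0.04 in A10KO 14.

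**Figure D4:**
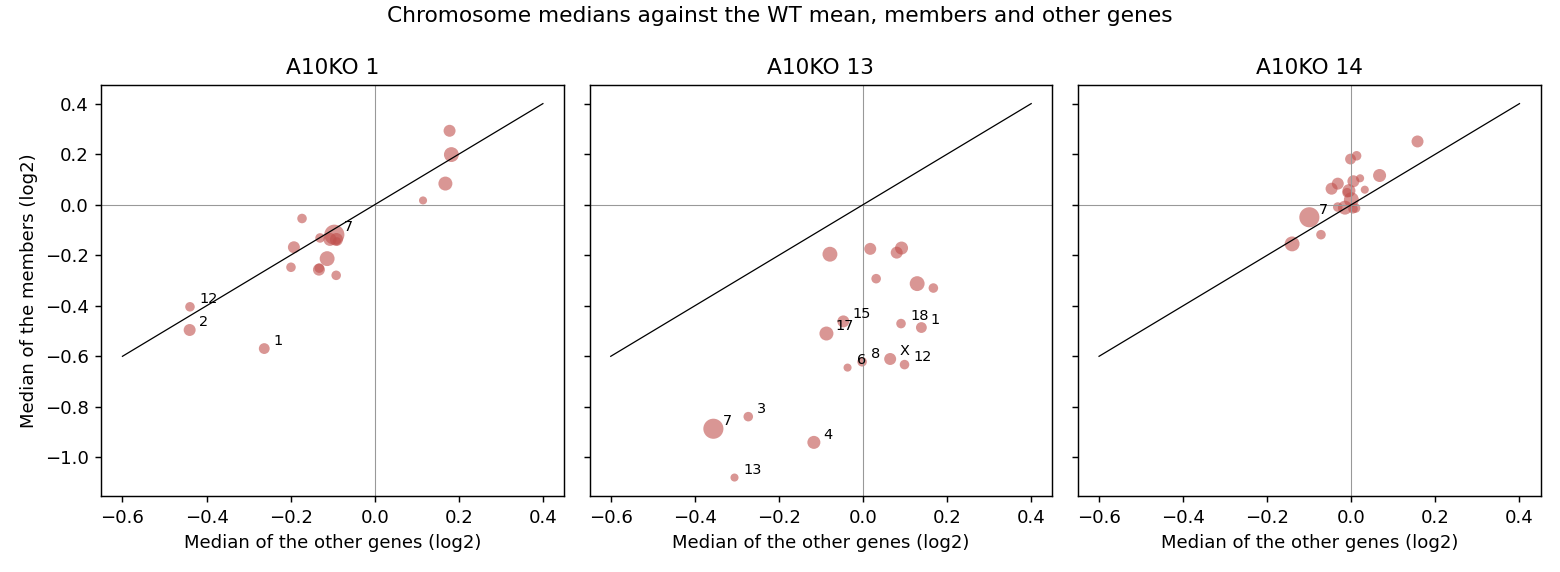
Median log2 difference from the WT mean of the members on each chromosome (y axis) against that of the other genes tested there (x axis), 1 panel per A10KO library, point size growing with the number of members, numbers naming chromosomes, with the line of equal values. In A10KO 13 all 19 points lie below the line, with chromosome 7 at -0.89 for members and -0.36 for other genes.

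Of 8 ribosomal protein genes and paralogs outside the naming rule, 0 were called by limma, where 0.0414% of all genes tested were called. At an unadjusted p under 0.05 there were also 0, against 2.56% of all genes higher and 6.27% lower. The median log2 change was -0.23, against -0.04 over all genes, and 7 of the 8 were below 0, against 56.5% of all genes. Rack1, a signalling scaffold on the small subunit, had 1237, 1026 and 1094 TPM in A10KO and 1314, 1332 and 1403 TPM in WT, with no overlap (limma adjusted p = 0.588). Fau, made as a fusion with a ubiquitin-like protein, had 399, 279 and 430 TPM in A10KO and 413, 425 and 404 TPM in WT. Rps3a1 had 1440, 1291 and 2123 TPM in A10KO and 1997, 1893 and 2020 TPM in WT. The p53-induced paralog Rps27l falls inside the naming rule and is a member. Its own level was 919, 627 and 830 TPM in A10KO and 902, 808 and 852 TPM in WT, with A10KO 13 the lowest. It made up 29.2%, 36.6% and 25.4% of the sum of Rps27l and Rps27 in A10KO and 27.6%, 26.5% and 26.5% in WT. That share was highest in A10KO 13, where the log2 difference from the WT mean was -0.44 for Rps27l and -1.10 for Rps27. Rps27 itself had 2233, 1084 and 2433 TPM in A10KO and 2369, 2241 and 2368 TPM in WT. Rpl22l1 made up 11.1% ± 1.95 of its sum with Rpl22 in A10KO and 10.9% ± 1.56 in WT (SD, n = 3 each).

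Other genes of the translation machinery, from lists written for the pathway, had 0 called members in each list. With 0.0414% of all genes tested called, a count of 0 says little about lists of this size. The 19 translation factors and other genes whose messages start with a TOP tract had a median log2 change of -0.07 and, in A10KO 13, a median of -0.18 against the WT mean, where the ribosomal proteins had -0.49. Eef1a1, the factor that brings aminoacyl-tRNA, had 7087, 7278 and 5891 TPM in A10KO and 5996, 6286 and 6407 TPM in WT. The 19 regulators, among them Mtor, Larp1 and Myc, had a median of 0.04, and the 15 chaperones and importers of ribosomal proteins had 0.20. Of these 15, 4 lay higher in A10KO without overlap and 1 lower, against 5.61% and 11.5% of all genes tested. Heatr3, which escorts Rpl5 into the nucleus, was among the higher, with 33.3, 42.0 and 35.7 TPM in A10KO and 31.0, 23.7 and 28.9 TPM in WT (limma adjusted p = 0.540). The lower was Aamp, the most abundant of the list, with 124, 125 and 155 TPM in A10KO and 162, 165 and 166 TPM in WT (limma adjusted p = 0.564). The 15 ribosome quality control genes had a median of 0.05. The 78 mitochondrial ribosomal proteins had a median of -0.04 and took 0.852%, 0.731% and 0.824% of the summed TPM in A10KO and 0.850%, 0.772% and 0.843% in WT.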

How the data were processed

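RNA was extracted with Trizol, treated with DNase I and sequenced from libraries made by the Illumina protocol, per the labels' protocols. The tools fastp, HISAT and RSEM and the build GRCm38.p5 are named in the submitters' processing notes, but versions, settings and the use of strand are not given in the sources read here. The deposited values were taken as TPM from their decimals and near-equal sums, and not as the counts that the name of the series table announces. Each library's own table equalled the series table in 6 of 6 cases. Because TPM keeps no counts, the precision given by depth is unknown, and reads shared between a gene and an identical or overlapping copy cannot be assigned with certainty.

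The comparison was A10KO (n = 3) with WT (n = 3) in limma 3.58.1 (R 4.3.3), with a mean-variance trend, on log2(TPM + 1), for the 12068 genes that reached 1 TPM in 3 or more libraries, with Benjamini-Hochberg adjustment over all of them and a threshold of 0.05. Log2 changes are on the log2(TPM + 1) scale, A10KO minus WT. The fit was tested on simulated data drawn with independent noise for each gene and the same spread in both groups. The members here varied more in A10KO than in WT, so that test does not show how the fit performs on them. All 77 members passed the filter. The values of some genes are not reported here, though they stay in the counts. Differences from the WT mean are log2(TPM + 1) of an A10KO library minus the mean over the 3 WT libraries. For a WT library, its own value was left out of that mean. Near-identical copies were found with blastn 2.17.0, from coding sequences of GENCODE M21. Starts came from RefSeq. Members, gene lists and tests were chosen with earlier results of these data known. Named members were the 6 highest and 4 lowest by mean TPM, the 6 largest changes in each direction and 9 named for their roles, and other genes named were chosen after their values were seen. Alternatives covered scaling, pseudocount (0.1), filter (none, or 5 TPM), array weights, added copies and leaving out each library.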

Additional observations from a re-analysis of the deposited data

How the results depend on the processing

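Under all 16 alternatives 0 members were called by limma. Of all genes tested, between 1 (without WT 1 or WT 2) and 25 (array quality weights) were called. The lowest limma adjusted p of any member lay between 0.144 (without A10KO 14) and 0.989 (without WT 3). At an unadjusted p under 0.05 there were 16 members without A10KO 14 and at most 3 under each other alternative. The share of all genes at that threshold is given only for the main fit, 2.56% higher and 6.27% lower. These counts therefore have no matching background. The median log2 change stayed below 0, with a range of -0.31 to -0.05 when each library was left out in turn, and the log2 ratio of summed members, -0.16, ranged from -0.27 to -0.03. Members lower in A10KO without overlap numbered 14 (11.5% of all genes tested did so). They numbered 9 with mitochondrially encoded transcripts removed (all genes 8.85%), 1 with median-of-ratios scaling (8.90%), 1 with TMM scaling (9.40%) and 6 with libraries scaled to the summed members (4.51%). Leaving out a library gave 14 to 46, with 14.1% to 21.2% of all genes. Members higher without overlap numbered 0 (all genes 5.61%). They numbered 3, or 3.90%, with mitochondrially encoded transcripts removed (Rpl5, Rps12 and Rps25, all genes 7.42%), 2, or 2.60%, with quantile normalization (Rpl5 and Rps25, all genes 9.07%) and 5, or 6.49%, with libraries scaled to the summed members (those 3, Rps2 and Rpsa, all genes 9.57%). Leaving out a library gave 0 to 5, the most without A10KO 13 (Rplp1, Rpsa, Rps12, Rps25 and Rps28, 6.49%, against 9.93% of all genes), so that each of these shares lay below that of all genes. The cause of these moves was not tested. Scaling to the summed members fixes their centre near 0 by construction, so the members' median of -0.03 under it says nothing of their shift, and it moved the median of all genes tested to 0.12, against -0.04 as deposited. Leaving out a library of 3 leaves 2 in its group, and counts without overlap are then easier to reach. Changing the pseudocount or the filter on low values changed no count of members called. The small groups, the unknown depth and the split of reads between members and their copies limit these results. No paired analysis was possible because the groups share only the replicate number 1.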
